A study of Hordeum vulgare with 30 samples.

Results

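HvPDC1 (HORVU.MOREX.r3.4HG0384560) is a pyruvate decarboxylase gene of barley (Hordeum vulgare), and its expression was followed here in roots of 5 varieties with and without 24 h of waterlogging. It was taken by its identifier, with its response in these libraries already known, and is 1 of 35826 genes in the count table and 1 of 20576 genes that passed the filter on low counts. The tested roots came from waterlogged seedlings of Golden Promise, Infinity, Passport, Pilastro and Regina that were 10 days old at the start of the treatment, and the controls were untreated seedlings of the same variety. Golden Promise is a spring type, and the others are winter types with 2-row ears (Infinity, Regina) or 6-row ears (Passport, Pilastro). Each combination of variety and treatment was represented by 3 libraries, and each library was made from the pooled roots of 3 plants, which gave 30 libraries in 10 groups. The sample labels name no mutation or transgene for any group, and the varieties are given by name only. Pilastro and Regina had been chosen in the study for a potentially stronger RT-qPCR response of HvHB and HvADH1, and Passport for a weaker one. HvPDC1 had been measured as well. Infinity was included for its place on a list of recommended varieties and its average response, and Golden Promise as a reference. The 5 varieties are thus not a random sample of barley.

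Pyruvate decarboxylase removes carbon dioxide from pyruvate, the end product of glycolysis, and leaves acetaldehyde. Alcohol dehydrogenase then reduces acetaldehyde to ethanol and gives back NAD+, which glycolysis needs to go on making ATP when roots in flooded soil lack oxygen for respiration. In plants the genes of both enzymes belong to the core set that is induced under hypoxia, together with genes of hemoglobins and of transcription factors of the ERF-VII family, and they are commonly used as markers of oxygen shortage in roots.

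The total count per library lay between 9601984 and 12349136, with a median of 11982157.5. The lowest count of HvPDC1 was 820, in Golden Promise control replicate 1, and no library was at 0 (0 of 30). The unit of level is CPM, set to the library total after TMM scaling, and fold changes and tests are from edgeR's quasi-likelihood model fitted to all 30 libraries, with p-values adjusted (Benjamini-Hochberg) over the 20576 genes tested and a threshold of 0.05. Between libraries of a group, counts varied far more than counting error allows (chi-square per degree of freedom 13.8 to 57.2 over 30 pairs of libraries), so that depth alone does not set the precision. Whether this spread came from the pools of roots or from technical steps was not tested. Of 3 leaf markers, the RuBisCO small chain was at 0 to 2.04 CPM in waterlogged and 0.492 to 3.81 CPM in control roots, and protochlorophyllide reductase was at 0 in 19 libraries. Chlorophyll synthase was slightly lower in waterlogged roots (mean log2 fold change -0.14, edgeR adjusted p = 0.0448). Summed, the 3 markers were at 28.6 to 42.2 CPM in waterlogged and 33.0 to 44.5 CPM in control roots, and their part in the results was not tested. No root marker was named in the annotation at hand. In whole roots, a change in the number of cells that use a gene and a change in RNA per cell cannot be told apart.

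HvPDC1 rose under waterlogging in all 5 varieties, and in none of them did the waterlogged and control libraries overlap. In Golden Promise the 3 waterlogged libraries had 459, 607 and 511 CPM, against 66.4, 106 and 72.1 CPM in the controls. Infinity had 2351, 1492 and 389.7 CPM in waterlogged roots and 241, 143 and 131 CPM in control roots. The libraries of waterlogged Golden Promise lay close to each other, whereas those of waterlogged Infinity spread widely, with replicate 3 much nearer to the controls than the others.

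In Passport the waterlogged libraries had 1291, 558 and 939 CPM, against 199, 197 and 199 CPM in the controls. Pilastro had 1678, 954 and 2019 CPM in waterlogged roots and 184, 282 and 244 CPM in control roots. In Regina HvPDC1 was at 1999, 1496 and 1092 CPM in waterlogged roots, against 189.6, 139 and 99.3 CPM in control roots. The lowest waterlogged library exceeded the highest control library by a factor of 5.76 in Regina, 4.34 in Golden Promise, 3.38 in Pilastro, 2.80 in Passport and 1.61 in Infinity. A complete separation of this kind in all 5 varieties at once was seen in 1.04% of the genes tested (214 of 20576), while it was seen in a single variety in 6.48% (Golden Promise), 10.2% (Infinity), 10.5% (Passport), 13% (Pilastro) and 8.87% (Regina) of them.

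**Figure D1:**
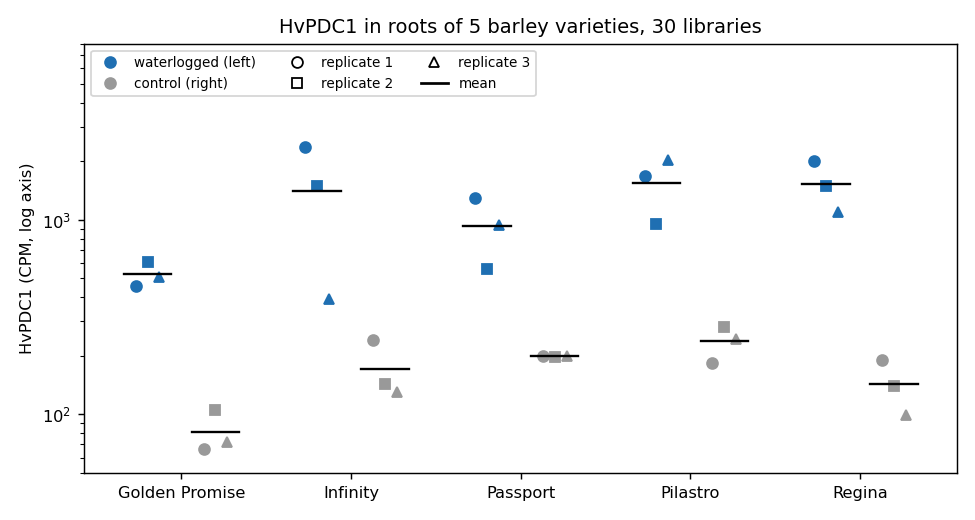
HvPDC1 in CPM (log axis) in each of the 30 libraries, with waterlogged roots in blue on the left and control roots in gray on the right of each variety, marker shapes for replicates and a black line for the mean of 3 libraries. The blue points lie above the gray points of the same variety throughout, with the smallest gap in Infinity, where waterlogged replicate 3 (389.7 CPM) stands apart from replicates 1 and 2.

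The increase was between 4.68-fold and 10.7-fold. In Regina the fold change was 10.7 (log2 fold change 3.42, SE 0.471, edgeR adjusted p = 0.000129), and in Infinity it was 8.22 (log2 3.04, SE 0.463, edgeR adjusted p = 0.000668). Pilastro and Golden Promise gave similar values, with a fold change of 6.54 (log2 2.71, SE 0.456, edgeR adjusted p = 0.00304) and of 6.45 (log2 2.69, SE 0.457, edgeR adjusted p = 0.00872). The smallest estimate was that of Passport, with a fold change of 4.68 (log2 2.23, SE 0.448, edgeR adjusted p = 0.0130). HvPDC1 was thus among the genes called higher in waterlogged roots in 5 of 5 varieties, where 2.56% of the genes tested were called higher in Regina, 2.46% in Pilastro, 0.729% in Passport, 3% in Infinity and 0.379% in Golden Promise. By size of the log2 fold change, between 145 (Pilastro) and 253 (Infinity and Passport) of the 20576 genes had a larger estimate in a given variety.

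The calls in Golden Promise and Passport did not hold without each library. Without control replicate 1 or control replicate 3 of Golden Promise, the adjusted p of that variety was 0.0579 or 0.0820, at log2 fold changes of 2.58 and 2.62. In Passport it was 0.0820, 0.0505 and 0.0699 without control replicate 1, 2 and 3, and 0.0574 without waterlogged replicate 1, while the log2 fold change stayed between 1.91 and 2.50. In Infinity the call held without each library, and the fold change was 5.50 without waterlogged replicate 1 and 11.2 without waterlogged replicate 3. When each variety was fitted alone, with 4 residual degrees of freedom per gene, the adjusted p was 0.0932 in Infinity and 0.0771 in Pilastro at log2 fold changes of 3.07 and 2.70.

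Averaged over the 5 varieties, HvPDC1 rose 7.05-fold (log2 2.82, SE 0.205, 95% interval 2.39 to 3.24, edgeR adjusted p = 1.75e-09), in 5 of 5 varieties. Of all genes tested, 12.7% were called higher in this mean contrast, and 123 had a larger mean log2 fold change. In an exact permutation test in which the treatment labels were exchanged within each variety (two-sided, 3200000 arrangements), the mean difference of 2.74 in log2 CPM gave p = 6.25e-07, the smallest value that this number of arrangements can give. Within a single variety, 3 libraries against 3 cannot give an exact p below 0.1.

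Treatment accounted for 78.0% of the sum of squares of HvPDC1 in log2 CPM, variety for 10.8%, the interaction of both for 1.74% and the differences between replicate libraries for 9.47%. The corresponding medians over all genes tested were 5.59%, 31.1%, 5.87% and 46.2%, and 31 of 20576 genes had a larger treatment share.

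The question of whether the varieties differed in their response was tested by the interaction of variety and treatment. No difference between the responses was detected (F statistic 1.07, edgeR adjusted p = 1, DESeq2 adjusted p = 1). For this test, 0% of the genes were called by edgeR, with 662 genes at an unadjusted p under 0.05, and DESeq2 called 22 genes. Among the 10 pairs of varieties, the largest difference of responses was that of Regina minus Passport, at 1.20 on the log2 scale (SE 0.608, 95% interval -0.06 to 2.45, edgeR adjusted p over the 10 pairs = 0.618). Regina minus Golden Promise was 0.73 (95% interval -0.53 to 1.99) and Pilastro minus Golden Promise 0.02 (95% interval -1.24 to 1.28). None of the 10 pairs passed the threshold (0 by edgeR, 0 by DESeq2, and 0 at an unadjusted p under 0.05, with 0% to 0.00486% of all genes called by edgeR in a pair), but the intervals span differences of several fold, so that equal responses are not shown.

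The level of HvPDC1 under waterlogging was compared next, and it differed between varieties close to the threshold. Mean levels in waterlogged roots were 526 ± 75.2 CPM in Golden Promise, 929 ± 367 CPM in Passport, 1411 ± 983 CPM in Infinity, 1529 ± 454 CPM in Regina and 1550.4 ± 544 CPM in Pilastro (SD, n = 3 libraries each). The F-test over the waterlogged groups gave an edgeR adjusted p of 0.0454, with 23.3% of all genes called in the same test. It was lost (adjusted p 0.0501 to 0.155) when any 1 of 21 of the 30 libraries was left out, most of all without Golden Promise waterlogged replicate 1 (0.155) or 3 (0.132), and was 0.0556 without a filter on low counts and 0.161 when the waterlogged libraries were fitted alone. DESeq2 gave an adjusted p of 0.00861.

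The pairs that passed were those with Golden Promise. Its waterlogged level was exceeded by Pilastro (log2 difference 1.56, SE 0.437, edgeR adjusted p = 0.0224), by Regina (1.54, SE 0.437, edgeR adjusted p = 0.0253) and by Infinity (1.42, SE 0.436, edgeR adjusted p = 0.0280). In these 3 comparisons, 10.8%, 9.36% and 15.8% of all genes were called. The libraries did not overlap for Pilastro and Regina, whereas Infinity replicate 3, at 389.7 CPM, lay below all waterlogged Golden Promise libraries. All 3 calls were lost (0 pairs called) without Golden Promise waterlogged replicate 1 or 3. Passport and Golden Promise, the neighbors at the low end of the order, did not differ beyond their spread (log2 difference 0.82, 95% interval -0.07 to 1.71, edgeR adjusted p = 0.270). Passport minus Infinity was -0.60 (95% interval -1.49 to 0.29, edgeR adjusted p = 0.496), and no difference was detected either between Infinity, Regina and Pilastro at the high end, where log2 differences were between -0.02 and 0.14.

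In control roots Regina and Passport had exchanged places in the order of the means, and the other varieties had the same place as under waterlogging. Mean levels were 81.4 ± 21.2 CPM in Golden Promise, 143 ± 45.3 CPM in Regina, 172 ± 60.7 CPM in Infinity, 199 ± 1.20 CPM in Passport and 237 ± 49.4 CPM in Pilastro (SD, n = 3 libraries each). The F-test over the control groups did not reach the threshold in edgeR (adjusted p = 0.0789, with 26.7% of genes called), while it passed in DESeq2 (adjusted p = 0.0250) and when the controls were fitted alone (adjusted p = 0.0142). It also passed without waterlogged replicate 1 (0.0450) or 3 (0.0133) of Infinity, libraries that are no controls but enter the shared estimate of the spread. Pilastro exceeded Golden Promise (log2 difference 1.54, SE 0.440, edgeR adjusted p = 0.0164, where 19.6% of genes were called), and this was the only 1 of 10 control pairs to pass after adjustment over all genes, where a pair had 4.3% to 19.6% of genes called. Adjusted over the 10 pairs, 2 passed, the second being Passport minus Golden Promise (log2 difference 1.29, SE 0.437, edgeR adjusted p over the 10 pairs = 0.0370), whose libraries did not overlap. The Pilastro pair was lost without control replicate 1 or 3 of Golden Promise or control replicate 2 of Pilastro (0 pairs called), and 3 pairs passed without waterlogged replicate 3 of Infinity. Neighbors in the order did not differ beyond their spread, with log2 differences of 0.81 (Regina minus Golden Promise), -0.27 (Regina minus Infinity), 0.21 (Passport minus Infinity) and 0.25 (Pilastro minus Passport). Across varieties, all 15 waterlogged libraries, of which Infinity replicate 3 at 389.7 CPM was the lowest, were above all 15 control libraries, of which Pilastro replicate 2 at 282 CPM was the highest, a separation seen in 0.233% of the genes tested (48 of 20576).

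The replicate libraries of waterlogged roots differed from each other in HvPDC1 more than in most genes with a similar mean over all 30 libraries. The pooled SD of HvPDC1 within groups was 0.740 in log2 CPM in waterlogged and 0.366 in control roots (10 degrees of freedom each). Of 719 genes with a mean within 1 log2 unit of HvPDC1, 98.3% had a smaller SD in waterlogged roots and 80.3% in control roots, and the median SD of these genes was 0.185 and 0.230. The mean was taken over all 30 libraries (8.63 log2 CPM for HvPDC1), so that these genes were not matched to its level within either treatment. In waterlogged Infinity the highest library was 6.03 times the lowest (CV 69.7%), whereas the 3 Passport controls had a CV of 0.602%.

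A second gene, HORVU.MOREX.r3.3HG0235810, is also described as a pyruvate decarboxylase in the annotation at hand. It came to notice because it was among the differentially expressed genes of the study, so that its direction is not independent evidence. It did not rise in any variety. In Regina it fell by 2.07 on the log2 scale (SE 0.366, edgeR adjusted p = 0.00132, where 1.49% of genes were called lower), with 4.15, 6.53 and 2.87 CPM in waterlogged roots, against 6.86, 23.9 and 26.0 CPM in control roots. Control replicate 1 (6.86 CPM) lay just above the highest waterlogged library (6.53 CPM) and far below the other controls, and the adjusted p was 0.164 with Regina fitted alone. In the other varieties the log2 fold changes were -0.90 (Golden Promise), -0.24 (Infinity), -0.87 (Passport) and -0.16 (Pilastro), none of which passed (adjusted p 0.264 to 0.849). The mean response was -0.85 (SE 0.158, edgeR adjusted p = 0.000350), with 14.4% of genes called lower in this contrast. The gene had 30 to 291 counts per library, so that it was measured with far fewer reads than HvPDC1, and gene lengths were not at hand to compare the levels of both genes.

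**Figure D2:**
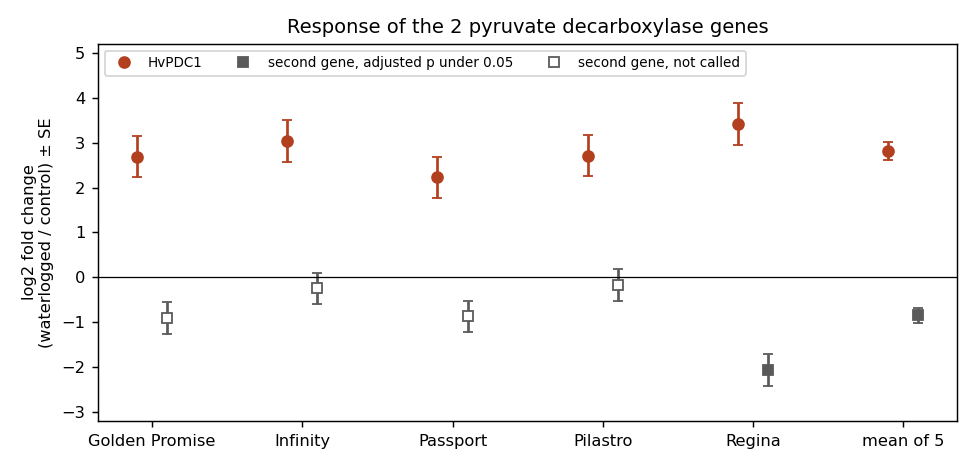
Log2 fold change of waterlogged over control roots with its SE for HvPDC1 (circles) and the second gene described as a pyruvate decarboxylase (squares, filled where the edgeR adjusted p was under 0.05) in each variety and as the mean of 5. HvPDC1 lies between 2.23 and 3.42 in all varieties, and the second gene lies below 0, with Regina (-2.07) and the mean (-0.85) as the filled squares.

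Alcohol dehydrogenase, the enzyme that follows pyruvate decarboxylase in the path to ethanol, had the most genes called higher among the 5 pathway lists. Of 20 genes described as alcohol dehydrogenases, 3 had no count and 17 were tested. Of these, 5 rose in at least 1 variety and 0 fell (edgeR, with 3 at an unadjusted p under 0.05 and 1 called by DESeq2), while 5.15% of all genes rose and 2.75% fell in at least 1 variety. The 5 were HvADH1, ADH1_A, ADH1_B, ADH1_C and ADH1_D, all of which the study itself had named as responding to waterlogging in these samples. Neither their number nor the place of this list is therefore independent evidence, and no other tested gene of the class was called in a single variety. In the mean response over varieties 5 rose and 1 fell, beside 12.7% and 14.4% of all genes. ADH1_C was not among these 5, whereas HORVU.MOREX.r3.6HG0627090 (mean log2 fold change 0.28, edgeR adjusted p = 0.0086) was. The mean log2 fold change of ADH1_C was 3.67 with an SE of 15477.8, so that this test cannot decide on the gene. In Passport the fit put ADH1_C at -5.95 on the log2 scale (edgeR adjusted p = 0.337). Its lowest difference of group means over the varieties was -1.21 in log2 CPM, at a mean level of 0.89 log2 CPM. The median log2 fold change of the 17 genes was 0.25, beside -0.02 over all genes. It was the value of HORVU.MOREX.r3.3HG0324080, which had 160 counts in total and an SE of 689.9, and so shows no rise of the class. HvADH1 (HORVU.MOREX.r3.4HG0345760) rose in every variety, with log2 fold changes from 2.92 in Passport and Pilastro to 4.47 in Regina. ADH1_D (HORVU.MOREX.r3.4HG0345740) likewise rose in every variety, by 3.75 (Passport) to 6.16 (Regina) on the log2 scale. ADH1_A (HORVU.MOREX.r3.1HG0082960) rose in 4 varieties, by 5.39 in Passport up to 7.36 in Regina. In Golden Promise, ADH1_A had 14.1, 30.6 and 5.88 CPM in waterlogged and 1.38, 2.10 and 0 CPM in control roots, which did not pass the test. ADH1_B (HORVU.MOREX.r3.2HG0115170) was at 25.7, 46.6 and 27.0 CPM in waterlogged Golden Promise and at 0 in its 3 controls.

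Aldehyde dehydrogenases, some of which oxidize acetaldehyde to acetate, gave calls in both directions. Of 22 genes so described, 17 were tested, of which 2 fell in at least 1 variety, where 2.75% of all genes did, and 0 rose (edgeR, with 3 at an unadjusted p under 0.05 and 2 called by DESeq2). In the mean response 2 rose and 5 fell, beside 12.7% and 14.4% of all genes, with a median of -0.14. HORVU.MOREX.r3.2HG0173750, which the study had named, fell in Infinity, Passport, Pilastro and Regina, by 0.42 (Infinity) to 0.74 (Regina) on the log2 scale, and had a log2 fold change of -0.43 in Golden Promise (edgeR adjusted p = 0.111). HORVU.MOREX.r3.7HG0671360 fell in Infinity, Pilastro and Regina, by 0.76 to 0.86 on the log2 scale.

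Upstream of pyruvate, the list of glycolysis genes covered only some steps of the pathway. Of its 10 tested genes, 2 rose in at least 1 variety, where 5.15% of all genes did, and 0 fell (edgeR, with 4 at an unadjusted p under 0.05 and 0 by DESeq2). In the mean response 2 rose and 2 fell, beside 12.7% and 14.4% of all genes, with a median of -0.10 over the 10 genes. Glucose-6-phosphate isomerase (HORVU.MOREX.r3.1HG0007200), which makes fructose 6-phosphate from glucose 6-phosphate, rose in 4 of 5 varieties, by 1.37 in Passport to 2.10 in Regina on the log2 scale. It had 240.3, 306 and 201 CPM in waterlogged Golden Promise and 105, 133 and 119 CPM in the controls (log2 1.06, edgeR adjusted p = 0.137). A 2,3-bisphosphoglycerate-independent phosphoglycerate mutase (HORVU.MOREX.r3.4HG0385870) rose in Pilastro alone among the varieties by the test (log2 0.90), without a test of the difference between varieties. Among 6 tested invertases, which cleave sucrose, 0 were called in any single variety by edgeR, with 0 higher and 2 lower at an unadjusted p under 0.05, and DESeq2 called 1 lower. In the mean response 3 of the 6 fell and 0 rose, beside 14.4% and 12.7% of all genes, with a median of -0.21.

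Of 15 genes of other enzymes and carriers that use pyruvate, such as pyruvate dehydrogenase subunits, lactate dehydrogenase and acetolactate synthase, 1 rose and 0 fell in at least 1 variety (edgeR, with 7 lower at an unadjusted p under 0.05 and 2 lower by DESeq2), a share near the 5.15% of all genes that rose. In the mean response 3 rose and 5 fell, beside 12.7% and 14.4% of all genes, with a median of -0.10. The 1 gene was a pyruvate, phosphate dikinase (HORVU.MOREX.r3.1HG0062940), an enzyme that interconverts pyruvate and phosphoenolpyruvate. It rose in Infinity (log2 4.41), Passport (4.39) and Regina (3.51). In Pilastro it had 76.8, 111 and 40.9 CPM in waterlogged roots and 5.37, 102 and 22.3 CPM in control roots, which overlapped and did not pass the test. L-lactate dehydrogenase, the other fermentation enzyme on pyruvate, had 1 gene in the part of the annotation at hand, and others may be missing. Its log2 fold changes of 0.17 to 0.52 passed in no single variety. In the mean response it rose (log2 0.32, edgeR adjusted p = 0.00122), with a positive estimate in 5 of 5 varieties.

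**Figure D3:**
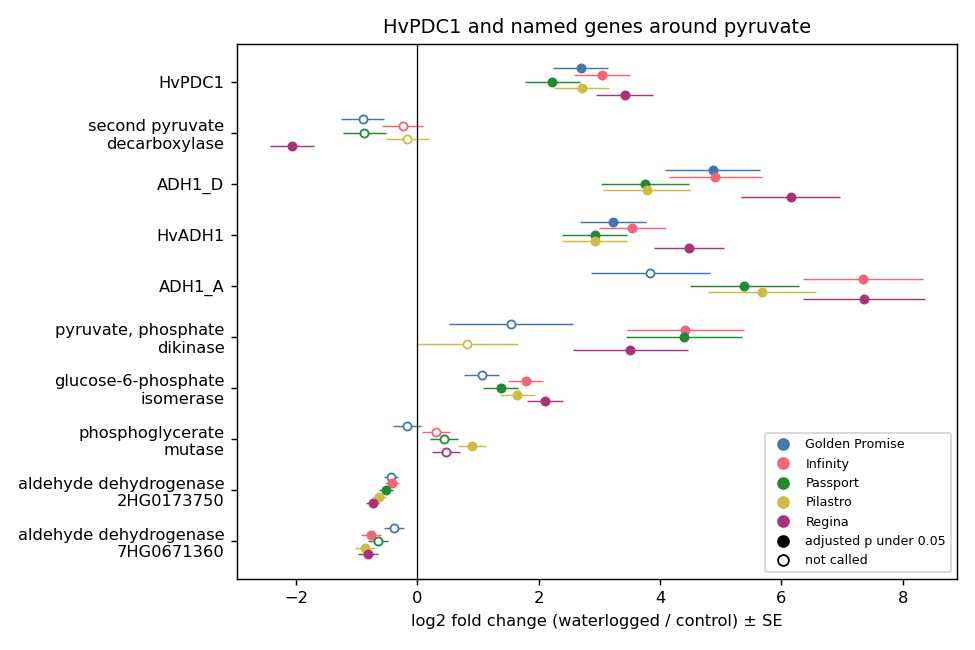
Log2 fold change of waterlogged over control roots with its SE for HvPDC1, the second pyruvate decarboxylase and named genes of neighboring steps, by variety (colors, in the order of the legend from top to bottom), with filled points where the edgeR adjusted p was under 0.05. HvPDC1, HvADH1 and ADH1_D are filled in all 5 varieties, and both aldehyde dehydrogenases shown lie below 0.

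The 13 other hypoxia genes that the study had named were set beside HvPDC1. All 13 rose in at least 1 variety (13 in Regina, 12 in Infinity, 10 in Pilastro, 9 in Golden Promise and 8 in Passport). HvADH1 and HvHB were known markers, whose RT-qPCR levels had served to choose the varieties. The other genes were named for their response in the same libraries, so that the counts are no independent evidence. In the mean response HvPDC1 (log2 2.82) was number 10 of the 14 genes by size, of which ADH1_A was the largest (5.93). It lay next below HvADH1 (3.42) and above RAP2.3 (2.77), HB1_A (2.10), HRE1 (1.70) and RAP2.12 (0.45). HvHB (HORVU.MOREX.r3.4HG0394960), a hemoglobin gene, had log2 fold changes from 2.72 in Pilastro to 5.95 in Infinity among the winter varieties. In Pilastro, where the log2 fold change of HvPDC1 was 2.71, HvHB had 1137, 849.5 and 1079 CPM in waterlogged roots and 36.9, 288 and 141 CPM in control roots. The HvHB controls of the other varieties were at 0 to 44.0 CPM.

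The levels of HvPDC1 followed those of HvADH1 and HvHB from library to library within each treatment. Over the 15 waterlogged libraries, Pearson's r with HvADH1 was 0.923 (permutation p = 1e-05, the smallest that 100000 resamples can give, adjusted over 4 relations 4e-05) and Spearman's rho was 0.939 (permutation p = 1e-05). Without the 2 libraries farthest from the median of HvADH1, r was 0.916. As deviations from the group means, which leave out differences between varieties, r was 0.899 (exact permutation within groups, p = 0.000514, adjusted p = 0.00206). For waterlogged Infinity, HvADH1 had 1410.1, 729.7 and 279.8 CPM in replicates 1, 2 and 3, in the same order as HvPDC1. Passport was different in this respect, as HvADH1 (468, 422 and 478 CPM) was even across libraries in which HvPDC1 ranged from 558 to 1291 CPM.

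In the 15 control libraries, r with HvADH1 was 0.858 (permutation p = 5e-05, adjusted 6.67e-05) and rho was 0.886 (permutation p = 5e-05), with an r of 0.812 without the 2 farthest libraries and of 0.872 within groups (exact permutation p = 0.00309). For HvHB, r was 0.803 (permutation p = 0.00039, adjusted 0.00039) and rho 0.786 (permutation p = 0.00097) in waterlogged libraries. In control libraries r with HvHB was 0.875 (permutation p = 3e-05, adjusted 6e-05) and rho 0.752 (permutation p = 0.00183). Without the 2 farthest libraries, r with HvHB was 0.740 in waterlogged and 0.729 in control libraries, and within groups it was 0.704 (exact permutation p = 0.0247) and 0.876 (exact permutation p = 0.00309). All 4 relations passed after adjustment in each of these forms. Whether a replicate number marks a common run of the experiment is not stated, and with 5 libraries per number and treatment no relation was computed within a number.

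**Figure D4:**
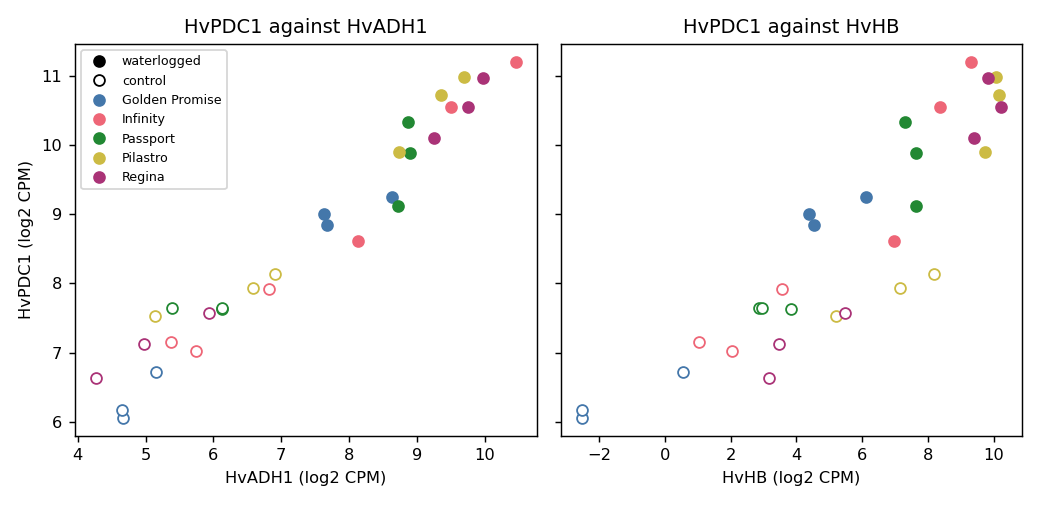
HvPDC1 in log2 CPM against HvADH1 (left) and HvHB (right) in log2 CPM, with 1 point per library, filled for waterlogged and open for control roots and colored by variety. Filled and open points form separate clouds, and HvPDC1 rises with either gene within each cloud (r of 0.923 and 0.803 for filled, 0.858 and 0.875 for open points).

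The genes most like HvPDC1 were found by Pearson's r of log2 CPM over the 30 libraries, which share the contrast of treatments, and are given as a description. Of 20575 other genes, 100 had an r over 0.9, and the median r was -0.03. The 20 most alike genes had r from 0.953 to 0.985, and 7 of the 20 had a name at hand. ADH1_D was number 2 (r = 0.981), HvADH1 number 3 (0.976), glucose-6-phosphate isomerase number 6 (0.975), an aminotransferase (HORVU.MOREX.r3.1HG0019260) number 7 (0.970), HB1_A number 8 (0.968), ADH1_A number 10 (0.965) and HORVU.MOREX.r3.5HG0444960, described as a respiratory burst oxidase, of a family that makes superoxide, number 13 (0.961). The first place was taken by HORVU.MOREX.r3.6HG0552610 (r = 0.985), for which no name was at hand. All 20 had a higher mean in waterlogged roots of all 5 varieties. HvHB was number 113 (r = 0.894), and the second pyruvate decarboxylase gene had an r of -0.38. By Spearman's rho or with variance stabilized counts, 16 of the 20 genes were in the top 20 as well.

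With the group means removed, so that only the differences between replicate libraries were left, 9 of these 20 genes were still among the 20 most alike. HORVU.MOREX.r3.6HG0552610 was again first (r = 0.955), and HORVU.MOREX.r3.1HG0076530 was second (r = 0.918). Genes with a name among the 20 were ADH1_D (number 7, r = 0.878), glucose-6-phosphate isomerase (number 8, 0.876), the aminotransferase (number 13, 0.852) and a 3-hydroxy-3-methylglutaryl coenzyme A reductase (HORVU.MOREX.r3.5HG0491360, number 16, 0.848), an enzyme of the mevalonate pathway. HvADH1 was number 21 (0.832) and HB1_A number 22 (0.829) on this measure. The other named hypoxia genes were farther down, with HRE2 at number 299 (r = 0.648), HvHB at 318 (0.641), RAP2.3 at 391 (0.620), the RAP2.3 homolog at 2335 (0.410), HRE1 at 2911 (0.376), RAP2.12 at 3181 (0.362), ADH1_C at 4308 (0.304) and ADH1_B at 6093 (0.219), beside ADH1_A at 63 (0.770) and the respiratory burst oxidase at 87 (0.755). HRE1, HRE2, RAP2.3 and RAP2.12 are transcription factor genes of the ERF-VII family, named after their Arabidopsis homologs.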

How the data were processed

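Roots were pooled from 3 plants per sample, and the labels' variety and treatment put the 30 libraries into 10 groups. The experiment was run independently 3 times according to the study, without saying which number marks which run, so that the spread between samples may be partly technical. The authors aligned 50 bp single-end reads to the Morex V3 genome with Bowtie2 2.4.5, handled alignments with SAMtools 1.15.1 and estimated gene abundance with StringTie 2.1.7, versions that the submitters' processing notes also name. The deposited values are counts per gene, whole numbers that were not normalized. Strand setting, treatment of reads that fit more than 1 gene and the conversion to counts are not given in the sources used here, so that reads of near-identical gene copies could be split between them. No column of sample values was left out (0 unused). None of 58438 entries of the reference list matched a gene ID (0 matches), and names are those of the paper and of the part of its tables at hand. Columns of the authors' own comparisons were not used.

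Counts were analyzed in R 4.3.3 with edgeR 4.0.16 (TMM, filterByExpr, quasi-likelihood tests, 1 coefficient per group, common dispersion 0.0653), with DESeq2 1.42.0 as an alternative, and in python 3.11.15 with scipy 1.17.1 and matplotlib 3.10.9. Log2 CPM used a prior count of 2 (alternative 0.5), and intervals are 95% intervals of the fit. Standard errors were derived from the F statistic. Tried as alternatives were no filter, size factors of DESeq2, a stricter filter (CPM above 1 in at least 15 libraries), a replicate block, fits of single varieties or treatments and leaving out each library. Scripts were tested on simulated data. Gene lists were whole classes of gene descriptions in the part of the annotation at hand, so that genes and steps of a pathway can be missing. Named are HvPDC1, the second gene, the 13 hypoxia genes, up to 3 called genes per list and direction with the largest mean change, and the named genes among the 20 most alike. The gene, lists and tests were chosen with earlier results of these data known.

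Pairing by replicate number was checked over 15479 genes, as the correlation between the deviations of a waterlogged library and of the control library with its number from their group means. The 3 values were 0.152, 0.288 and 0.445 for Regina and 0.269, 0.344 and 0.223 for Passport. All being over 0.1, these varieties were treated as paired by number in an alternative fit with a replicate block, a choice that rests on the data alone. The main values and tests of all varieties are from the fit without pairing. Promoter, protein and genome sequences were not used here.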

Additional observations from a re-analysis of the deposited data

How the results depend on the processing

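Of 770 values under alternative settings over 26 results, 721 kept their direction and their side of the threshold (or, for counts, stayed within 1.5 times), and 0 reversed. The mean response of HvPDC1 stayed between 2.70 and 2.91 (log2) with any library left out and between 2.74 and 2.83 under the other settings. A replicate block changed no call of the responses, the mean response or the interaction of HvPDC1, nor of the responses of the second gene, and was not run for the comparisons of levels: in Passport and Regina alone it gave log2 fold changes of 2.15 and 3.43, and with a block in all varieties 2.71 in Golden Promise, 2.77 in Infinity and 2.67 in Pilastro. Pathway genes called lower were 3 with the block in Passport and Regina alone, 5 with a block in all varieties, 7 with DESeq2 and 2 in the main analysis, and with a block in all varieties 434 genes were called in Passport, against 223 without. In each of the varieties not taken as paired, 1 of its 3 same-number correlations was below 0 (-0.0468 in Golden Promise, -0.0897 in Infinity, -0.0417 in Pilastro), and not every library there correlated best with its own number. Fitting varieties alone lost the calls of Infinity (3.07), Pilastro (2.70) and the second gene in Regina (-2.05). With 1 library left out, the log2 fold change was 2.57 to 2.92 in Golden Promise and 1.91 to 2.50 in Passport. The adjusted p between waterlogged groups was 0.00257 to 0.155 (0.0556 without a filter, 0.161 with waterlogged libraries fitted alone) and that between control groups 0.0133 to 0.226 (0.0250 with DESeq2, 0.0142 with controls fitted alone). Pairs of varieties called were 0 to 3 for control levels (2 with DESeq2) and 0 to 3 for waterlogged levels, and pathway genes called lower 2 to 4. The cause of these changes was not tested. HvPDC1 had at least 820 counts per library.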
